A study of Rattus norvegicus with 5 samples.

Results

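On the oligonucleotide array used here a transcript is read by a probe set, a group of short probes whose brightness is summarised as 1 signal. Some probe sets are assigned to several genes in the platform annotation. They were chosen by a rule that uses no measured value: a probe set was a member if its annotation listed 2 or more gene symbols, was no array control, was not 1 of 4 excluded by name, and listed no symbol starting RT1- or Mt and a digit. Of 308 probe sets with several symbols, 298 were members, out of 8740 probe sets on the array. A further 7006 list 1 symbol and 1426 list none.

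The RNA came from Müller cells, the main glia of the retina, of male Sprague-Dawley rats. The normal group had 3 arrays, 1 for each pool of cells from 12 healthy rats, labelled as biological replicates. The diabetic group had 2 arrays of 1 pool of 12 rats. Streptozotocin, which kills insulin-producing cells, had made these rats diabetic 6 months earlier, and small doses of insulin were given. The second diabetic array is labelled a technical replicate, so both were averaged into 1 pool. The comparison is therefore 1 diabetic pool against 3 normal pools. Signals are intensities after quantile normalisation of the deposited values, with a floor of 20 below which values carry no order. Differences are on the log2 scale, diabetic minus normal.

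The cells carried the marker genes of Müller cells. Glul, which makes glutamine from glutamate, gave signals of 7532 to 11797, and 8 of 10 such markers were bright enough to test. Photoreceptor markers were also present. All 4 that could be tested lay above the normal arrays on both diabetic arrays, with summed signals of 2208 to 5622 on the normal and 7912 and 8418 on the diabetic arrays. Of 6 tested markers of microglia and leukocytes 5 did the same, with sums of 1325 to 1649 against 1936 and 2082. Among all tested probe sets 9.53% lay above the normal arrays in this way. In pooled cells more cells of a type and more RNA per cell cannot be told apart. Normal array 3 and diabetic array 2 share a hybridisation day and chip lot in the experiment records, while normal arrays 1 and 2 each stand alone in both; for diabetic array 1 neither is recorded. The ratio of the largest to the smallest trimmed mean of the deposited arrays was 3.52.

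A probe set can list several symbols where the sequence it was designed on is assigned to more than 1 gene, and some lists may only reflect the annotation, since no probe sequence was at hand. Genes come to share sequence when a stretch of a chromosome is duplicated in tandem, which leaves neighbours such as the globins or the olfactory receptors. They also share it when a spliced transcript is copied back into the genome at another place. Such copies, many of them silent pseudogenes, are most numerous for strongly and widely transcribed genes such as those of ribosomal proteins. A further source is a locus whose transcripts share exons, as in the Ugt1a and gamma protocadherin clusters. Where transcripts of several listed genes bind the probes, the signal is their sum, and no symbol on the list can be singled out.

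The lists held 500 different symbols in 207 different combinations. Exactly 2 symbols were listed for 198 members (66.4%), and the longest list, of gamma protocadherins, had 13. Lists with several named genes of 1 family, some beside unrelated genes, made up 135 (45.3%), a gene with a copy named after it 61 (20.5%), and a gene with a numbered pseudogene 59 (19.8%). Another 12 paired a gene with an uncharacterised locus, 11 gave 1 symbol more than once, and 20 (6.71%) joined symbols with no common name. In the RefSeq gene table of assembly GRCr8 the matched genes of a list all lay on different chromosomes for 123 members (41.3%). At least 2 of them lay within 20 genes of each other for 122 (40.9%). For 30 at least 2 shared a chromosome but were not that near, and others on the list could lie elsewhere. The array's own naming marks probe sets shared between transcripts with the suffix _s or _f. These suffixes stood on 127 members (42.6%) and on 1325 (18.9%) of the probe sets with 1 symbol.

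Sequence around the start sites was compared for genes listed together. RefSeq windows of 250 bases before and 50 after the start were at hand for 352 of 508 listed genes, which gave 358 pairs listed together. Of 117 pairs on different chromosomes 29 shared an unbroken run of 20 or more bases, but only 3 did so before the start. Of 241 pairs on the same chromosome 84 shared such a run, 74 of them before the start. The rate among genes not listed together was not measured, and some pairs come from lists that join unrelated genes. A pair on different chromosomes and a pair of neighbours follow, then a pair with no common name, as the 100 bases before the start, 5′ to 3′ on the gene's strand. The first pair, from the actin lists, is Actg1, a cytoplasmic actin gene, and its copy Actg1l1. All 50 bases after the start were identical in both, and the longest shared run before it was 6 bases. Capitals mark the longest run the printed stretches share, also 6 bases.
Actg1 (GRCr8 chr10:106120952-106121051, minus strand): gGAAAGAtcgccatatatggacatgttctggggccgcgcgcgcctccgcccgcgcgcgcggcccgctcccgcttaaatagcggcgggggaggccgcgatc
Actg1l1 (GRCr8 chr3:93433945-93434044, plus strand): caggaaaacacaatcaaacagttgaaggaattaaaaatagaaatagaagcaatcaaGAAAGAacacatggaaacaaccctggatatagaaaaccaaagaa

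The second pair comes from a globin list, whose genes are neighbours. Capitals mark the longest run the windows of Hbb and Hbbl1 share, 22 bases, which lies before the start in both genes. It begins with CCAAT, a motif that occurs on either strand in 17.3% of 27457 RefSeq windows of this length.
Hbb (GRCr8 chr1:167663722-167663821, minus strand): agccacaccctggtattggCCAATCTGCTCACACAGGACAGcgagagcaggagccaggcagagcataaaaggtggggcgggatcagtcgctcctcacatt
Hbbl1 (GRCr8 chr1:167650236-167650335, minus strand): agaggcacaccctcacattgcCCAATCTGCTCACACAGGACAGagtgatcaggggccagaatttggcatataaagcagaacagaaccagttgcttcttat

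The third pair, Tf and Srprb, is listed on 1 member with a large difference and has no common name. Transferrin (Tf) is the plasma iron carrier, and Srprb is a subunit of the receptor that brings ribosomes to the endoplasmic reticulum. Their longest shared run was 8 bases. Capitals mark TATAAA, searched on both strands, which is in the Tf stretch and not in that of Srprb, and in 5.95% of all such windows.
Tf (GRCr8 chr8:112695377-112695476, minus strand): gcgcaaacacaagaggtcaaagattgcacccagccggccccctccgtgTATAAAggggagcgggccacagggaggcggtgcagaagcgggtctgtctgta
Srprb (GRCr8 chr8:112661525-112661624, minus strand): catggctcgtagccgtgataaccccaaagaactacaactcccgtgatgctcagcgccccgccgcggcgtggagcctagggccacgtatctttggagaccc

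As a whole the members differed little between the groups. After the dimmest 30% of probe sets had been left out, 227 of the 298 members (76.2%) were tested, beside 6118 of all 8740 (70%), and 35 members lay at the floor on all 5 arrays. The tested members were brighter than the array at large, with a median signal of 273 against 108. Their median log2 difference was -0.06, with 92 above 0 (40.5%) and 135 below, against -0.01 over all tested probe sets, 48.8% of which lay above 0. A difference within 0.5 of 0 was found for 205 members (90.3%) and for 81.7% of all. Without scaling between arrays the median of all probe sets moved to 0.47 and that of the members to 0.44. The members' median less that of all probe sets was then -0.03, and -0.05 with quantile normalisation. The middle 50% of the members' differences ran from -0.21 to 0.12, and that of all probe sets from -0.23 to 0.22. Relative to all probe sets, signs turned between the scalings for V01227_s_at, S76489_s_at and AF091570_s_at, and for the medians of the alpha tubulins, glycolytic enzymes, sulfotransferases and olfactory and vomeronasal receptors.

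No member passed an adjusted p of 0.05 in limma, nor did any probe set on the array (0%). All members had an adjusted p of 0.9999. An unadjusted p under 0.05 was reached by 2 members, against 1.6% of all tested probe sets. Leaving out normal array 1 gave 7 members (3.07%, against 4.69% of all), leaving out diabetic array 1 gave 14 (6.09%, against 3.96%), and leaving out diabetic array 2 gave 10 (4.37%, against 4.38%). With 1 diabetic pool no exact permutation test can go below 0.25. The diabetic arrays both exceeded every normal array for 15 members (6.61%), against 9.53% of all tested probe sets, and were both under every normal array for 14 (6.17%), against 7.01%. Together these are 29 members (12.8%), against 16.5% of all. When any 1 array was left out, so that fewer arrays have to be passed, they were 46 to 96 members (20% to 41.9%, against 26% to 44.4% of all). They were 15 with a common median (6.58%, against 13.8%) and 9 without scaling (3.95%, against 8.71%). A log2 difference of 1 or more in either direction was found for 6 members (2.64%), against 3.24% of all. The repeat arrays of the diabetic pool were over 2-fold apart for 27 members (11.9%), against 10.1% of all.

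The largest difference belonged to the complement list. rc_AI639117_s_at lists Cfb and C2, neighbouring genes on chromosome 20 for the proteases that activate the alternative and the classical complement pathway. Its signals were 179.8, 33.5 and 40 on normal arrays 1 to 3 and 710.0 and 489.8 on the diabetic arrays, which do not overlap. The log2 difference was 3.24 ± 1.0 (SE), or 9.48-fold, with an unadjusted p of 0.0195 and an adjusted p of 0.9999 in limma. It lay between 2.80 and 4.01 over the 15 alternative settings. For this and other sets without overlap, leaving arrays out could not turn the sign, so a constant sign adds little. No probe set with 1 symbol on this array is named for either gene. The only other complement member, rc_AA800942_at for C4b and C4a, was too dim to test, with 20 to 29.5 on the 5 arrays.

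U31866_g_at, which lists Srprb and Tf, had the second largest positive difference. It gave 68.8, 55.4 and 130.2 on the normal and 316 and 288 on the diabetic arrays, again without overlap. The log2 difference was 1.93 ± 0.58 (SE), or 3.80-fold, with an unadjusted p of 0.0181 and an adjusted p of 0.9999 in limma. It lay between 1.14 and 2.39 over the 15 alternatives, the lowest being that between the arrays of the shared day. No probe set with 1 symbol is named for these genes either. The part of the higher photoreceptor and leukocyte markers in either difference was not tested.

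The ferritin lists pointed in opposite directions. Ferritin stores iron in a shell of heavy (Fth1) and light (Ftl1) chains, and both genes have many copies. rc_AI231807_at, which lists Ftl1, Ripor2 and 7 further symbols of copies or uncharacterised loci, read 2675, 2605 and 2007 on the normal and 1784 and 1691 on the diabetic arrays. rc_AI231807_g_at, of nearly the same list, read 1548, 2019 and 1829 against 1343 and 1412. Both diabetic arrays were below all normal arrays on either, with log2 differences of -0.47 ± 0.27 and -0.38 ± 0.26 (SE). rc_AI169802_at, for Fth1 and Fth1-ps5, gave 2159, 1718 and 2121 on the normal and 2315 and 2636 on the diabetic arrays, a difference of 0.31 ± 0.26 above all normal arrays. None of the 3 passed the test. Without scaling the light-chain differences were 0.02 and 0.09, below the shift of 0.47 of all probe sets by 0.45 and 0.38.

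Chromatin proteins were among the lists whose probe sets disagreed. D84418_s_at lists Hmgb2, a DNA-bending protein, with Hmgb2l1, Hmgb2l2 and Hmgb2-ps6, and read 71.8, 111 and 105 on the normal and 184 and 219 on the diabetic arrays. Its difference was 1.09 ± 0.44 (SE), or 2.13-fold, and lay between 0.89 and 1.57 over the 15 alternatives. The other 2 probe sets of that list gave 0.33 ± 0.52 for rc_AI008836_s_at and -0.06 ± 0.44 for rc_AA996401_s_at, with overlapping arrays. A dim set that lists Hmgb2 alone, rc_AI044390_s_at, read 20 to 42.3 and differed by 0.19 ± 0.54. Hmgb1, a related protein, is listed with Hmgb1l5 and Hmgb1-ps33 on M64986_g_at. That set read 443, 589 and 399.6 against 396 and 289, a difference of -0.48 ± 0.32. M64986_at, which lists Hmgb1 alone, differed by -0.01 ± 0.36.

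The histone lists differed among themselves. rc_AA964055_at, for 10 symbols of histone H2B genes, was dim, with 35.5, 53.6 and 43 on the normal and 61.6 and 75 on the diabetic arrays, and differed by 0.65 ± 0.50. rc_AI177503_at, for the replacement histone genes H3f3a and H3f3b, spanned 1143 to 3282 on the normal and 1299 to 1851 on the diabetic arrays, a difference of -0.23 ± 0.58. For Npm1, a nucleolar chaperone listed with Npm1-ps9, J04943_at gave -0.18 ± 0.34.

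The brightest member was an actin list. rc_AI179012_s_at, for Actg1, Actg1l1 and Actb, read 4339, 7117 and 6911 on the normal and 7478 and 6297 on the diabetic arrays, a difference of 0.20 ± 0.36. rc_AI070848_f_at has the same list and read 2702, 5605 and 5066 against 4454 and 3282, a difference of -0.15 ± 0.46. Normal array 1 was the lowest array on both. The smooth and heart muscle actins Acta2 and Actc1 shared X80130cds_i_at, which differed by -0.22 ± 0.40.

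There were 3 tubulin lists, for the alpha chains of microtubules. V01227_s_at (Tuba1b, Tuba1a) differed by -0.01 ± 0.30 at 3482 to 5183. J00797cds_s_at (Tuba1b, Tuba1c, Tuba1a and Tuba1b-ps11) was low on 1 array only, with 3282, 3482 and 3713 on the normal and 3282 and 2087 on the diabetic arrays, and differed by -0.41 ± 0.23. The dimmer rc_AA892333_at (Tuba1b, Tuba1c) read 273.5, 237 and 188 against 234 and 275, a difference of 0.14 ± 0.34. Both probe sets for Cfl1, an actin-severing protein, and its copy Cfl1l1 had negative differences. rc_AI105348_i_at read 599, 632 and 458 against 292 and 397, without overlap, a difference of -0.71 ± 0.30. Over the 15 alternatives it lay between -1.08 and -0.17. It was -0.17 without scaling, below the shift of 0.47 of all probe sets by 0.64, and -0.21 between the arrays of the shared day. rc_AI105348_f_at read 196, 135 and 169 against 85.3 and 140.3, with overlap, and differed by -0.59 ± 0.38.

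Motor and light-chain lists were mixed. Of 6 tested myosin members 5 had a negative difference, the largest on rc_AA875523_i_at (Myl6b, Myl6) at -0.44 ± 0.25, where diabetic array 1 alone was low. The brightest myosin set, rc_AA875523_s_at (Myl6, Myl6l), differed by -0.17 ± 0.30. A light chain of the dynein motor, Dynll1, is listed with Dynll1l1 on rc_AI009806_at, which read 344, 490.3 and 494 against 555 and 585, a difference of 0.38 ± 0.32.

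Ribosomal protein genes were the largest family, with 37 members, 36 of them tested. They were bright and close to each other, at mean signals of 373 to 2406 and differences of -0.35 to 0.27. Their median signals on the arrays were 1086, 1275 and 1218 for the normal and 1146 and 1265 for the diabetic group. The median difference was -0.08, with 12 above 0 and 24 below, and none reached an unadjusted p of 0.05. The brightest was rc_AA945806_at (Rps14, Rps14-ps7) at -0.18 ± 0.23, and the largest difference was on X78167_at (Rpl15, Rpl15l1, Rpl15l3) at -0.35 ± 0.28, where the arrays overlapped.

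Of the 36 tested ribosomal protein members 1 lay above and 2 lay below all normal arrays on both diabetic arrays. Over all tested probe sets these shares were 9.53% and 7.01%. X62482mRNA_s_at (Rps25, Rps25l3 and 2 pseudogenes) lay above the normal arrays on both diabetic arrays at 1045 and 1069, a difference of 0.24 ± 0.23. X65228cds_s_at (Rpl23a, Rpl23al1, Rpl23al4 and Rpl23a-ps20) lay below them at 336 and 349.6, a difference of -0.30 ± 0.26, and rc_AI233749_at (Rpl30 with copies) at 787 and 975, a difference of -0.22 ± 0.23.

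The lists for ribosomal RNA, the RNA core of the ribosome, behaved differently from the protein lists. Ribosomal RNA lacks the poly(A) tail by which messenger RNA is usually primed for labelling. rc_AA893870_g_at (Rn28s, Rn45s) read 229.7, 297 and 3620 on the normal and 136 and 2808 on the diabetic arrays. rc_AA859372_s_at, which lists Rn18s and Rn45s beside 4 symbols of unrelated genes, read 156, 727 and 7753 against 323 and 6877. Over 5 probe sets of this kind the median signals were 212, 299.6 and 1580 against 136 and 1262. High and low arrays did not follow the groups: normal array 3 and diabetic array 2, which share a day and lot, were above the other 3 on all 5. Over all tested probe sets those arrays were the highest pair for 11.1%, and over the tested members for 26 (11.5%). These 5 sets differed between the groups by -0.39 to 0.64 with SEs of 0.72 to 1.98, so neither an effect of diabetes nor its absence could be read from them. A sixth set, rc_AI176460_s_at, lists Rn5-8s beside unrelated genes and did not have this pattern.

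Translation factors and RNA-binding proteins gave small differences as a rule. Eif5, an initiation factor, and its pseudogene Eif5-ps1 share rc_AI013194_at, which read 288, 309 and 604 on the normal and 361 and 725 on the diabetic arrays, with its highest signals on the arrays of the shared day. Its difference was 0.44 ± 0.48. Ybx1 binds messenger RNA and is listed with Ybx1-ps20 on 3 probe sets. The bright S83025_s_at and D13309_s_at gave -0.07 ± 0.23 and -0.01 ± 0.23, and the dim rc_AI230572_at, at 59.8, 53.4 and 113 against 113 and 114, gave 0.67 ± 0.58. rc_AA875102_at, for the spliceosome protein Snrpe and its copies, was 444, 400.5 and 420.2 against 319.8 and 363, a difference of -0.31 ± 0.26.

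The Hsp70 lists were low on 1 diabetic array rather than on both. Hspa1a and Hspa1b, twin genes for the stress-induced Hsp70, share 4 members. On AA848563_s_at the normal arrays read 603, 1348 and 1400 and the diabetic arrays 1050 and 228. rc_AA818604_s_at read 612, 1391 and 1212 against 1081 and 310.4, Z27118cds_s_at 1458, 2461 and 2501 against 1923 and 1384, and L16764_s_at 3135, 2757 and 4149 against 3556 and 1702. All 4 had a negative difference, from -1.09 ± 0.53 to -0.35 ± 0.38, and on all 4 diabetic array 2 was the lowest of the 5 arrays. Over all tested probe sets that array was the lowest for 15.8%, and over the tested members for 42 (18.5%). Without diabetic array 2 the median of the 4 was 0.05 in place of -0.61, and without diabetic array 1 it was -1.33. Z75029_s_at, which lists Hspa1a alone, also had its lowest signal on diabetic array 2, with 1460 there and 2325 to 2940 on the other 4.

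The 10 members of the chaperone group are repeat readings of an Hsp70, an Hsp90 and a cyclophilin list. Of these 7 had their lowest signal on diabetic array 2, against 15.8% of all tested probe sets. All 10 were lower there than on diabetic array 1, a share that was not measured over all probe sets. rc_AI176546_at (Hsp90aa1, Hsp90aa1-ps17) differed by 0.05 ± 0.23 and rc_AA944397_at, of the same list, by 0.34 ± 0.35. M11942_s_at, for the constitutive Hspa8 and Haus8l2 and not counted in that group, differed by -0.09 ± 0.28 at 3003 to 4199. Cyclophilin A (Ppia) catalyses proline isomerisation and is listed with Ppial4d and an uncharacterised locus on 4 members. Of these 4 sets of 1 list, 2 lay above the normal arrays on both diabetic arrays, as did 9.53% of all tested probe sets. rc_AA818858_s_at read 975, 948 and 979 against 1475 and 1068, a difference of 0.38 ± 0.22, and rc_AI228674_s_at 2045, 2245 and 2232 against 2501 and 2281, a difference of 0.14 ± 0.23. The other 2, rc_AA818152_f_at and M19533mRNA_i_at, had their lowest signal on diabetic array 2 and differed by -0.25 and -0.06.

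Lists of detoxifying enzymes were dim in these cells. Cytochrome P450 enzymes oxidise drugs and steroids, and 7 of their 13 members were tested, at mean signals of 32.1 to 255. K00996mRNA_s_at (Cyp2b2, Cyp2b1) read 434, 209 and 175 against 258 and 257, a difference of 0.03 ± 0.56. M11251cds_f_at, of the same list, rested on 1 array: it read 248 on normal array 1 and 20 to 53.7 elsewhere, with a difference of -0.66 ± 1.43.

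Glucuronosyltransferases attach glucuronic acid to bilirubin and drugs. Of their 13 members 7 were tested, all of them Ugt1a lists, and 5 lay at the floor on all 5 arrays. J05132_s_at, listing 8 Ugt1a symbols, differed by 0.22 ± 0.45. D38065exon_s_at, listing 6, read 189, 91.1 and 87.5 against 97.2 and 20, the last at the floor, and differed by -1.38 ± 0.59. Without diabetic array 2 the difference of D38065exon_s_at was -0.24, and it was below 0 in all 15 alternatives. The sulfotransferase sets S76489_s_at (Sult1e1 listed more than once) and rc_AA817987_f_at (Sult2a1, Sult2a6) differed by -0.02 ± 0.55 and -0.56 ± 0.61.

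Olfactory receptors are best known from the sensory neurons of the nose. All 15 of their member sets were above the filter, at mean signals of 30.2 to 837. The median of these was 103, near the 108 of all tested probe sets. Their median signals were 159, 84.1 and 66.4 on the normal and 92.8 and 110 on the diabetic arrays. The highest array was normal array 1 for 13 of the 15. Over all tested probe sets that array was the highest for 28.1%, and over the tested members for 56 (24.7%). AF091570_s_at (Olr1469, Or1e16) was the brightest, at 1266, 727 and 659 against 1726 and 396, where the 2 arrays of the single diabetic pool were the highest and the lowest. Its difference was -0.03 ± 0.42.

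A single olfactory list, of Or10al5b, Or10al27, Or10al4b and Or10al4c, was read by 5 probe sets, whose differences ran from -0.76 to 0.18. AF034899_i_at read 66.9, 31.8 and 28.7 against 20 and 27, a difference of -0.76 ± 0.65. Of 4 vomeronasal receptor sets only AF053987_g_at, for 5 Vom2r symbols, was tested. It was low on 1 array, at 128, 152 and 21.4 on the normal and 149 and 146 on the diabetic arrays, a difference of 0.98 ± 1.16.

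Immune lists were mostly too dim to compare. Of 7 members for the kappa light-chain segments Igkvl16 and Igkv28 2 were tested. M18530cds_f_at gave 0.39 ± 0.50 and M18532cds_f_at -0.80 ± 1.0. M32062_g_at, for the antibody receptor Fcgr2a and its copy Fcgr2al1, read 46.9 to 63.7 on the normal and 56.8 and 75 on the diabetic arrays, a difference of 0.24 ± 0.47. All 5 members for the fatty acid and scavenger receptor Cd36 and Cd36l1 were below the filter. The globin sets X56325mRNA_s_at (Hba-a2, Hba-a1) and rc_AI179576_s_at (Hbb, Hbb-bs, Hbb-b1 and Hbbl1), for the haemoglobin chains of red cells, differed by 0.18 ± 0.35 and 0.12 ± 0.30.

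Lists for energy metabolism were bright and nearly level. M17701_s_at (Gapdh with Gapdhl10 and Gapdh-ps118) read 3774, 4715 and 5002 on the normal and 4378 and 4199 on the diabetic arrays, a difference of -0.06 ± 0.27. M54926_at (Ldha, Ldhal1) differed by 0.07 ± 0.22. The 6 lists of respiratory chain and ATP synthase subunits differed by -0.16 to 0.21. The brightest, rc_AA859957_at (Ndufb4, Ndufb4l4), gave 0.11 ± 0.24. rc_AA819708_s_at (Cox7a2, Cox7a2l2) read 620.2, 759 and 794 against 805 and 867, a difference of 0.21 ± 0.27.

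A pair of lipid lists had large negative differences with wide errors. AF036761_g_at lists Scd, Scd2, Scd3 and Scd4, the desaturases that make monounsaturated fatty acids, and read 97.9, 689 and 471 on the normal and 278 and 20.9 on the diabetic arrays. Its difference of -2.05 ± 1.08 went with diabetic array 2, whose log2 signal less that of diabetic array 1 was -3.74. AF036761_at, which lists Scd2 alone, differed by -0.83 ± 0.79, and the brightest Scd2 set, rc_AA875269_at, by 0.05 ± 0.29. The other tested Scd2 sets gave -0.69 ± 0.45 (S75730_at), -0.36 ± 0.42 (U67995_s_at) and -0.20 ± 0.30 (M15114_g_at). J02585_at, for Scd alone, gave -0.20 ± 0.37. All these single sets except rc_AA875269_at had their lowest signal on diabetic array 2. Y09333_g_at (Acot2, Acot1), for thioesterases of fatty acid breakdown, differed by -0.95 ± 0.77. It read 70.4, 62.3 and 22.9 on the normal and 28.9 and 20 on the diabetic arrays, with overlap and the last at the floor. The tested sets for Acot2 alone gave -0.05 ± 0.45 (Y09333_at) and -0.17 ± 0.48 (AB010429_s_at). J02749_g_at (Acaa1b, Acaa1a), for a peroxisomal thiolase, lay above the normal arrays at 111 and 112, a difference of 0.44 ± 0.43.

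Protein turnover and signalling lists completed the set. L36664_s_at lists Ace, the angiotensin-converting enzyme, with Ace3, and read 33.4, 53.1 and 34.7 on the normal and 20 and 25 on the diabetic arrays, where the first is at the floor. Its difference was -0.82 ± 0.53, while U03734_at, for Ace alone, gave -0.03 ± 0.54. rc_AI639241_at, for the deubiquitinase Usp12 and Usp12l1, read 43.1, 67.8 and 54.1 against 42.8 and 28.3, a difference of -0.64 ± 0.51. Among proteasome subunits D90258_s_at (Psma3, Psma3l) gave 0.62 ± 0.52, D10754_at (Psmb6, Psmb6l1) -0.34 ± 0.32 and D10754_g_at -0.06 ± 0.47.

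The remaining named sets were single lists. AF104399_g_at, for the transcriptional coactivator Cited1 and Cited1l1, lay above the normal arrays at 215 and 169 and differed by 0.43 ± 0.35. M27434_s_at (Mup4l1, Obp3, Mup4l4), for major urinary proteins, did so at 29.7 and 30.6, close to the floor, and differed by 0.42 ± 0.47. AB004277_at, for 13 gamma protocadherin symbols, differed by -0.18 ± 0.49.

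Probe sets with the same list are assigned to the same named genes and can be set against each other. They may still bind different transcripts or parts of them, since no probe sequence was at hand. For 40 lists 2 or more probe sets were tested, 97 in all. On 4 of these lists the mean signals were over 10 times apart, by up to 25.3 times. The median gap between the highest and lowest difference on a list was 0.30. The differences had opposite signs on 21 of the 40 lists, and the gap passed 1 on 3: Ugt1a at 1.34, Igkvl16 and Igkv28 at 1.20, and Hmgb2 at 1.15. On 7 lists some probe set had both diabetic arrays outside the normal range, and on none of the 40 did every probe set, although the 2 nearly equal Ftl1 lists did so together.

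Some genes on the lists also had probe sets of their own. For 125 members at least 1 listed gene was named alone on another probe set, and for 173 none was. Of 120 pairs of a tested member and such a tested set 83 lay within 0.5 of each other, 17 were over 1 apart, and 50 had opposite signs. Where a list joins unrelated genes, the single sets can be laid beside it. X61295cds_s_at lists Serinc1, a serine incorporator of cell membranes, and Crp, the C-reactive protein, and was chosen here after its values were seen. It read 4378, 2675 and 1846 on the normal and 4112 and 3003 on the diabetic arrays. M13101cds_f_at, listed with Crp alone, read 4479, 2067 and 1519 against 3403 and 2083, the same order of the 5 arrays from highest to lowest, and U83119_f_at, also of Crp, had this order too. The dim rc_AA818144_at, listed with Crp alone as well, did not: it was lowest on normal array 1 and highest on normal array 2. The differences were 0.34 ± 0.49 for X61295cds_s_at and 0.14 ± 0.60, 0.23 ± 0.65 and 0.15 ± 0.59 for the sets listed with Crp alone in turn. Signals of these sets differed widely, and whether the bright ones read Crp transcripts was not tested. The shared order therefore singles out neither gene on the list and does not show that Crp is abundant in these cells. Another list of unrelated genes, Asb2 and Hspb1 on rc_AA799438_at, was also chosen after its values were seen. It differed by -0.02 ± 0.53, while the tested sets listed with Hspb1 alone gave 0.87 ± 0.30, 0.39 ± 0.58, 1.07 ± 0.35 and 0.27 ± 0.51.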

How the data were processed

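The deposited table holds 1 linear intensity for every probe set on each Affymetrix rat array. The authors' summary algorithm and scaling (not given in the sources used here) could affect every value. Arrays were quantile normalised (the largest and smallest trimmed means differed by over 1.5 times), floored at 20 and converted to log2, which understates differences of dim probe sets. The 59 controls and the dimmest 30% were left out, so 6118 of 8740 were tested. The diabetic arrays were averaged, and this pool was set against the 3 normal ones with limma 3.58.1 (R 4.3.3; lmFit, eBayes with trend, two-sided, Benjamini-Hochberg over all tested probe sets). All spread comes from the normal pools, with 2 residual degrees of freedom, and the diabetic pool is assumed to vary like them. The step was tested on simulated data.

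Symbols came from the platform annotation; 809 of 837 listed Entrez IDs matched the RefSeq table of GRCr8. Members, families and lists were chosen with earlier results of these data known. A family needed 2 symbols of 1 pattern or a shared leading name. Named were the 12 largest differences in each direction among members whose diabetic arrays lay outside the normal range, those with an unadjusted p under 0.05, the brightest and most different of each listed family, the 6 brightest, and the 4 with the widest normal range; others were chosen after their values were seen.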

Additional observations from a re-analysis of the deposited data

How the results depend on the processing

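The 4 summary results were recomputed under 18 settings, 2 of which were chosen after seeing the data: leaving out the arrays that share a day and lot, and leaving out lists with a repeated symbol. Members past an adjusted p of 0.05 numbered 0 in limma in each setting that gave a test except without the filter on dim probe sets. There 3 dim members with all normal arrays at the floor passed (170 of all 8740 probe sets did), and 7 had an unadjusted p under 0.05 (2.35%, against 4.46% of all). That second count was 1 without scaling (0.439%, against 0.556%), 4 with a floor of 10 (1.75%, against 1.57%) and 5 with a floor of 50 (2.27%, against 4.49%). It was 4 with the 5 arrays as separate samples (1.76%, against 4.02%), 0 among lists with a shared family stem, and 2 to 14 when each array was left out (0.87% to 6.09%, against 0.866% to 4.69%). The members' median was 0.44 without scaling and -0.08 to -0.01 when each array was left out. Members with both diabetic arrays outside the normal range were 29, and 9 without scaling, 15 with a common median, 16 among lists of exactly 2 symbols, 46 to 96 when each array was left out and 125 without the shared-day arrays (54.6%, against 60.6% of all), where fewer arrays have to agree. Normal array 3 and diabetic array 2 alone give a median of -0.05 and no test. No paired analysis was possible because both diabetic arrays are technical repeats of 1 pool. Dim signals near the floor limit what can be read from most immune and detoxification lists and from some receptor lists.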
